A study of Mus musculus with 29 samples.

Results

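The 8 genes described here were listed as genes of the oligodendrocyte lineage. They were taken by name from the 48709 genes counted in 12 treated mouse cortices and the 38360 counted in 7 untreated ones. They are Olig1, Olig2, Sox8, Sox10 and Nkx2-9, which encode transcription factors, the receptors Pdgfra and Gpr17, and the surface proteoglycan gene Cspg4, also known as NG2. The list was chosen by gene name together with measured values, the higher Sox8 counts in the libraries from embryos given a Wnt inhibitor, so the levels of Sox8 are a description here and carry no test. All 8 were listed in both count tables, 7 passed the filter on low counts, and Nkx2-9 did not.

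Oligodendrocyte precursors arise first in the ventral forebrain, spread into the cortex, and are joined late in gestation by precursors born in the cortex itself. Olig2 and Olig1 specify and maintain the lineage, Sox8 and Sox10 are related SoxE factors that act with them, and Pdgfra receives the PDGF signal that keeps precursors dividing. Gpr17 is switched on as precursors commit to differentiate and is switched off before myelin is made, and Wnt signalling is known as a brake on that step. Pdgfra is also expressed by meningeal fibroblasts and Cspg4 by pericytes, Olig1 and Olig2 by ventral progenitors, Sox8 by some astroglia and neurons, and Sox10 by Schwann cells.

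The study asked what the BAF chromatin remodelling complexes, which need either Smarcc1 (BAF155) or Smarcc2 (BAF170) as a scaffold, do in the late embryonic cortex and whether they act through Wnt signalling. All samples were cortex of C57BL/6J embryos at E17.5. The treated RNA groups were 4 wild type cortices with vehicle (WT vehicle), 4 BAF dcKO_hGFAP-Cre cortices with vehicle (dcKO vehicle) and 4 BAF dcKO_hGFAP-Cre cortices with the Wnt inhibitor (dcKO inhibitor), which the study's methods name as ICG-001, injected into the pregnant mother every day. The untreated RNA groups were 4 libraries with the letter C and 3 with the letter M, and H3K27me3 was profiled in 4 libraries with the letter C and 4 with the letter K. The deposited genotype reads dcKO for the C libraries too, so C, M and K are used here as letters; by the study's methods C stands for littermates heterozygous for both floxed genes and M and K for the double knockout. The Cre is driven by the human GFAP promoter, which switches on in radial glia of the medial pallium before the dorsal and lateral pallium. Which cells of these samples kept both genes was not measured. Whole tissue was sequenced, and in such bulk samples fewer cells of a type and less RNA per cell cannot be told apart.

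The deleted genes and the fit between the experiments were looked at before the results. Smarcc1 lay between 244.5 and 298.8 CPM (counts-per-million, scaled by the trimmed mean of M values) in the WT vehicle libraries. In the dcKO vehicle libraries it lay at 135.8, 242.5, 133.2 and 138.1 CPM, and in the dcKO inhibitor libraries at 214.3, 251.8, 139.8 and 173.3 CPM. In the untreated M libraries 2, 3 and 4 it lay at 245.5, 128.1 and 135.4 CPM against 247.3 to 269.3 CPM in C. Smarcc1 and Smarcc2 were both less than 25% below the mean of the controls in the libraries labelled dcKO vehicle 2, dcKO inhibitor 1, dcKO inhibitor 2 and untreated M 2, which goes against their labels, and these 4 are called the libraries with near-control Smarcc levels below. Total counts ran from 12514443 to 26600594 in the treated and from 11946658 to 28391046 in the untreated libraries.

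The 2 RNA experiments also resembled each other library by library. For each of the 7 untreated libraries, the deviations of 16156 genes from the group mean correlated most with those of the treated vehicle library of the same number (C with WT vehicle, M with dcKO vehicle), at r from 0.20 to 0.75 across genes, which are not independent. Xist, expressed in females, and Ddx3y, a gene of the Y chromosome, gave the same sex in 7 of 7 such pairs. The library dcKO vehicle 1, which has no untreated partner, held RNA of both, Xist at 672.9 and Ddx3y at 19.03 CPM, unlike the other 11 treated libraries. Without it Gpr17 differed by -0.76 (SE 0.20) and Pdgfra by 0.51 (SE 0.24) on the log2 scale between dcKO vehicle and WT vehicle. Ttr stood at 114.2 CPM in WT vehicle 4 and 119.6 CPM in untreated C 4, against 3.14 to 12.9 CPM in the other control libraries. Whether these pairs came from the same embryos was not tested and the labels do not say so, but the untreated comparison is not treated here as an independent repeat of the vehicle comparison.

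The levels of the 8 genes differed widely when set per kilobase of exon, the scale on which genes can be compared. In WT vehicle cortices Olig1 had the highest level, 20.7 ± 6.96 CPM per kb (mean ± SD, n = 4), followed by Olig2 at 9.91 ± 3.09, Sox8 at 6.76 ± 1.077, Pdgfra at 3.95 ± 0.485, Gpr17 at 2.96 ± 0.448, Sox10 at 2.38 ± 0.878 and Cspg4 at 1.76 ± 0.507 CPM per kb. Neighbours in this order whose ranges of 1 SD overlapped were Olig2 and Sox8, Gpr17 and Sox10, and Sox10 and Cspg4. Nkx2-9, a homeobox gene of the ventral neural tube, was counted 0 times in 18 of the 19 libraries and 1 time in dcKO inhibitor 2. A count of 0 allowed a level of up to 0.107 to 0.252 CPM, depending on the library, a limit of 3 counts that covers counting error only. The spread was not shared evenly: in WT vehicle 3 the levels of Olig1, Olig2, Sox10 and Cspg4 were the lowest of their group and those of WT vehicle 1 or 4 the highest.

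**Figure D1:**
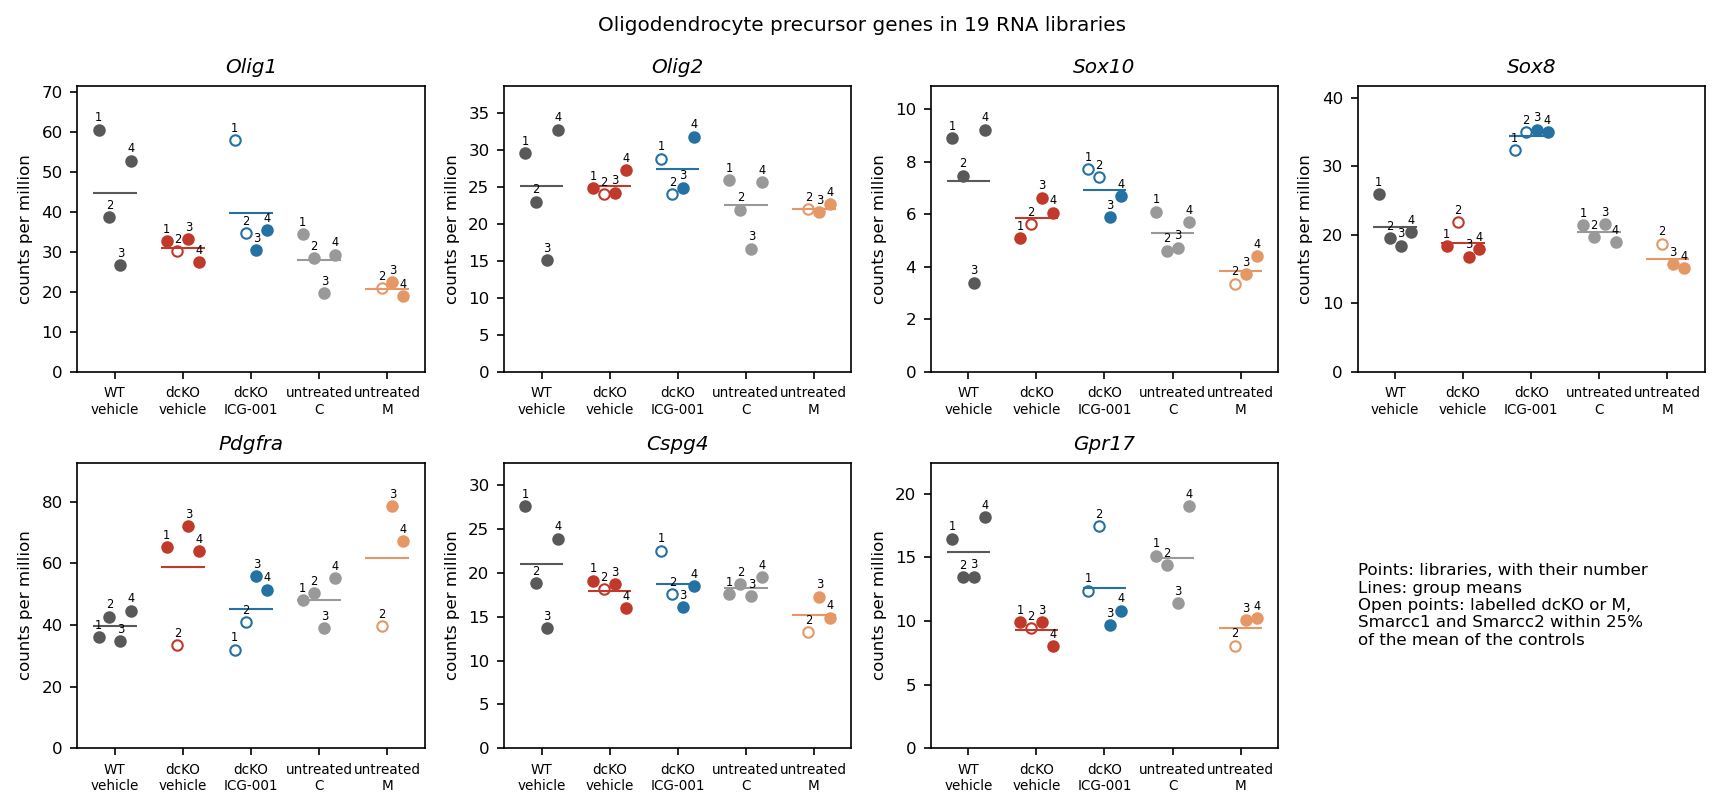
CPM (vertical axis, from 0) of the 7 tested genes in each of the 19 RNA libraries, by group; points carry the library number, lines are group means, and open points are the 4 libraries with near-control Smarcc levels. Sox8 is higher in all 4 inhibitor libraries (32.4 to 35.4 CPM) than in any other, Gpr17 is lower in all dcKO vehicle libraries than in all WT vehicle libraries, and Pdgfra is high in the filled dcKO vehicle and M points.

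Gpr17, the receptor of committed precursors, showed the clearest difference between dcKO vehicle and WT vehicle. It lay at 16.5, 13.5, 13.5 and 18.2 CPM in WT vehicle and at 9.92, 9.44, 9.89 and 8.02 CPM in dcKO vehicle. The groups did not overlap, and the library labelled dcKO vehicle 2, with near-control Smarcc levels, was as low as the others. The fitted log2 fold change was -0.73 (SE 0.18), or 0.603 of the WT vehicle level, with an unadjusted p of 0.00123 and a Benjamini-Hochberg adjusted p of 0.233 in edgeR's quasi-likelihood test, so it did not pass at 0.05. With DESeq2's Wald test on the same genes the adjusted p was 0.0263. With the libraries of near-control Smarcc levels left out, edgeR gave a log2 fold change of -0.74 (SE 0.15) and an adjusted p of 0.0156. Over all settings tried the log2 fold change ran from -0.78 to -0.63 and the adjusted p from 0.0156 to 0.788, the highest without dcKO vehicle 4.

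The untreated libraries gave nearly the same picture for Gpr17. It lay at 15.1, 14.4, 11.4 and 19.02 CPM in C and at 8.06, 10.04 and 10.2 CPM in M libraries 2, 3 and 4. All 3 M libraries lay below all 4 C libraries, with a log2 fold change of -0.65 (SE 0.17), an unadjusted p of 0.00381 and an adjusted p of 0.149 by edgeR, and an adjusted p of 0.0237 by DESeq2. Without the library labelled M 2 it was -0.56 (SE 0.18, adjusted p = 0.0716, edgeR), and over all settings the adjusted p ran from 0.0237 to 0.568. When the counts of same-numbered vehicle and untreated libraries were summed, so that each pair counted once, the log2 fold change was -0.66 (SE 0.13) with an adjusted p of 0.0607 by edgeR.

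Gpr17 lies on chromosome 18 between 31942997 and 31949636 (mm10), on the minus strand and wholly inside Lims2, a focal adhesion gene on the plus strand. Their exons share 188 of the 5195 exon bases of Gpr17, and the strand setting of the counting is not given in the sources used here, so reads of those bases cannot be told apart. Lims2 lay at 1.74 to 2.56 CPM in WT vehicle and 1.05 to 1.31 CPM in dcKO vehicle, a log2 fold change of -0.79 (SE 0.25), and its share in the Gpr17 result was not tested. In the untreated libraries Lims2 differed by -0.30 (SE 0.21) on the log2 scale.

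Pdgfra was the one tested gene of the 7 with a fitted log2 fold change above 0 between dcKO vehicle and WT vehicle. It lay at 36.1, 42.7, 34.7 and 44.6 CPM in WT vehicle and at 65.3, 33.5, 72.2 and 63.9 CPM in dcKO vehicle. The dcKO vehicle libraries 1, 3 and 4 were above every WT vehicle library and the library labelled dcKO vehicle 2 was below every one. The log2 fold change was 0.57 (SE 0.22), with an adjusted p of 0.414 by edgeR and 0.271 by DESeq2. Without the library labelled dcKO vehicle 2 it was 0.76 (SE 0.17) with an adjusted p of 0.0265, and without all libraries of near-control Smarcc levels 0.76 (SE 0.11) with an adjusted p of 0.00263 (edgeR). Over all settings the log2 fold change ran from 0.45 to 0.76 and the adjusted p from 0.0024 to 0.886, the highest without dcKO vehicle 4.

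In the untreated libraries Pdgfra lay at 48.1, 50.3, 39.1 and 55.2 CPM in C and at 39.7, 78.6 and 67.3 CPM in M libraries 2, 3 and 4. M libraries 3 and 4 were above all C libraries, and the library labelled M 2 was within them. The log2 fold change was 0.37 (SE 0.22, adjusted p = 0.454, edgeR) with all libraries and 0.60 (SE 0.12, adjusted p = 0.0122, edgeR) without the library labelled M 2, and 0.17 at the lowest, without M 3. In the dcKO inhibitor libraries Pdgfra lay at 32.1 and 40.9 CPM in libraries 1 and 2, with near-control Smarcc levels, and at 55.9 and 51.5 CPM in libraries 3 and 4, where Smarcc1 was lower. The libraries fall into separate clusters by Smarcc1, so no correlation was computed.

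**Figure D2:**
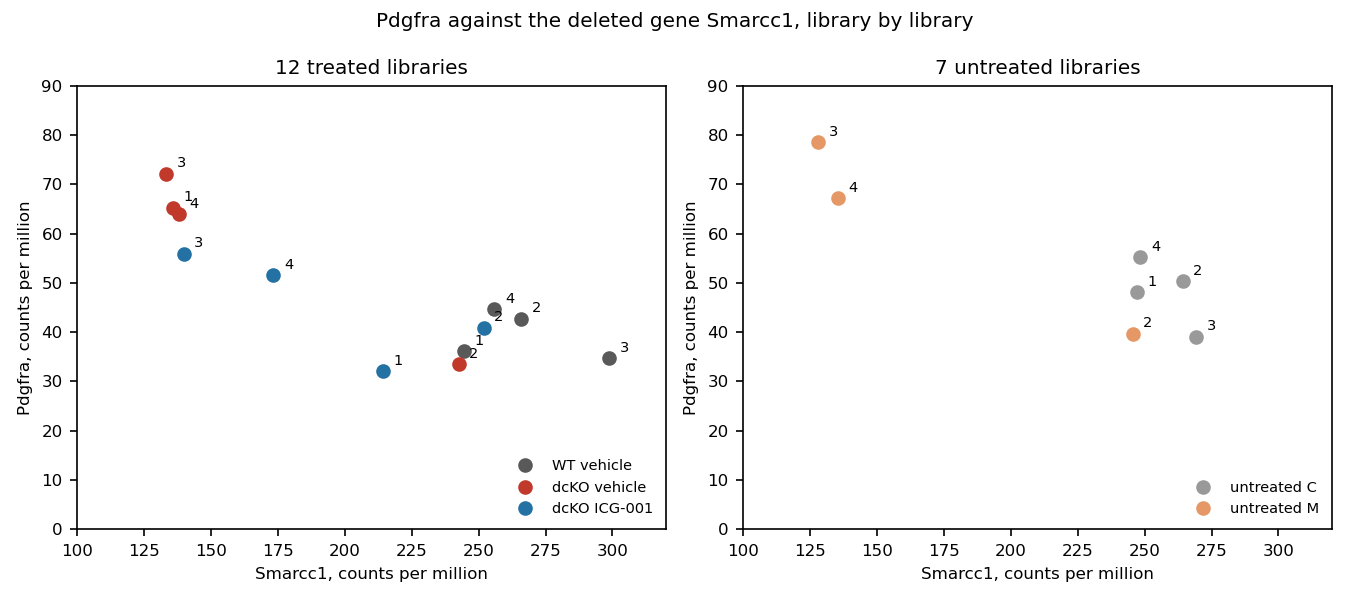
Pdgfra against Smarcc1, both in CPM, in the 12 treated libraries (left) and the 7 untreated libraries (right); each point is a library with its number. Libraries with Smarcc1 at 128.1 to 173.3 CPM carry Pdgfra at 51.5 to 78.6 CPM, and all others, including the 4 labelled dcKO or M, at 32.1 to 55.2 CPM.

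Markers of other cell types were summed per library and set beside the Pdgfra values. The summed level of 8 meningeal fibroblast markers, led by Col1a2 and Col3a1, was 20.6, 82.1, 23.7 and 79.5 CPM in WT vehicle, 32.4, 23.2, 34.6 and 31.1 CPM in dcKO vehicle and ranged from 26.2 to 72.7 CPM in dcKO inhibitor, and none of the 8 was at 0 in a whole group. The summed level of 8 pericyte markers ran from 230.8 to 247.2 CPM in WT vehicle and from 224.8 to 244.2 CPM in dcKO vehicle. Markers of ventral progenitors and interneurons, 10 genes led by Dlx1 and Lhx6, were ordered like Pdgfra in dcKO vehicle but not in WT vehicle. Their sum was 660.1, 669.1, 549 and 595.6 CPM in WT vehicle and 770.6, 479.9, 830.1 and 764.4 CPM in dcKO vehicle. In dcKO inhibitor it ranged from 718.4 to 936.3 CPM, where Pdgfra ranged from 32.05 to 55.9 CPM. Cortical neuron markers, 6 genes led by Neurod6 and Neurod2, were ordered the other way, with sums of 2189 to 2846 CPM in WT vehicle and 1486, 2669, 1596 and 1811 CPM in dcKO vehicle. The part of these other cells in the Pdgfra and Gpr17 levels was not tested.

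The remaining transcription factor and proteoglycan genes did not pass an adjusted p of 0.05 in either comparison. Olig1 lay at 60.7, 38.7, 26.8 and 52.9 CPM in WT vehicle and at 32.8, 30.2, 33.3 and 27.5 CPM in dcKO vehicle, overlapping groups with a log2 fold change of -0.54 (SE 0.24) and an adjusted p of 0.486 (edgeR). Untreated, Olig1 lay at 19.8 to 34.4 CPM in C and 18.9 to 22.5 CPM in M, a log2 fold change of -0.43 (SE 0.17, adjusted p = 0.268, edgeR). Olig2 lay at 15.1 to 32.7 CPM in WT vehicle and 24 to 27.2 CPM in dcKO vehicle, a log2 fold change of -0.01 (SE 0.19). Its value was near 0 and changed sign with the setting, so no direction is given. Sox10 lay at 3.39 to 9.22 CPM in WT vehicle and 5.10 to 6.62 CPM in dcKO vehicle (log2 fold change -0.33, SE 0.24), and Cspg4 at 13.7 to 27.6 against 15.99 to 19.1 CPM (log2 fold change -0.23, SE 0.18). In the untreated libraries all 3 M values of Sox10 (3.36 to 4.40 CPM) lay below all 4 C values (4.61 to 6.09 CPM), with a log2 fold change of -0.45 (SE 0.17, adjusted p = 0.235, edgeR). Cspg4 likewise lay at 13.3 to 17.3 CPM in M and 17.3 to 19.5 CPM in C, a log2 fold change of -0.26 (SE 0.11, adjusted p = 0.275, edgeR) with groups that just failed to overlap.

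Counted over the tested genes, none of the 7 passed an adjusted p of 0.05 between dcKO vehicle and WT vehicle, where 0.00611% of all 16372 genes tested did, nor between untreated M and C, where 0.00634% of 15770 did (edgeR). At an unadjusted p of 0.01, the limit the study used, 1 of 7 was called in each comparison, Gpr17 both times and lower, where 1.29% and 2.80% of all genes were called lower. At an unadjusted p of 0.05, 2 of 7 were lower and 1 higher with vehicle (5.33% and 4.14% of all genes), and 5 of 7 were lower untreated (8.14%), Sox8 among the 5.  DESeq2 called 1 of 7 in each comparison, Gpr17, where it called 0.733% and 3.67% of all genes. Without the libraries of near-control Smarcc levels, edgeR called Pdgfra higher and Gpr17 lower with vehicle, where 2.47% of all genes were called higher and 3.34% lower, and without the library labelled M 2 it called Pdgfra higher and Sox8 lower, where 5.57% of all genes were called higher and 6.88% lower, with Sox8 counted but read as a description. The groups failed to overlap, all lower, for 1 of 7 with vehicle (2.58% of all genes) and 4 of 7 in the untreated libraries (6.21% of all genes), Sox8 among the 4. Median log2 fold changes over the 7 were -0.23 and -0.31, and over all genes tested 0.00 in both comparisons.

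The dcKO effect with vehicle was also set against that in the untreated libraries in 1 fit of all 19. None of the 7 genes passed for this difference, as did 0% of 16156 genes, with 0.099% of genes at an unadjusted p of 0.01 and none of the 7 among them (edgeR). The difference on the log2 scale was 0.21 (SE 0.33) for Pdgfra and -0.07 (SE 0.26) for Gpr17. With same-numbered libraries paired it was 0.15 (SE 0.10) for Pdgfra and -0.10 (SE 0.16) for Gpr17, and again none of the 7 passed (edgeR). Since the libraries resemble each other pair by pair, this says little about a repeat of the experiment.

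**Figure D3:**
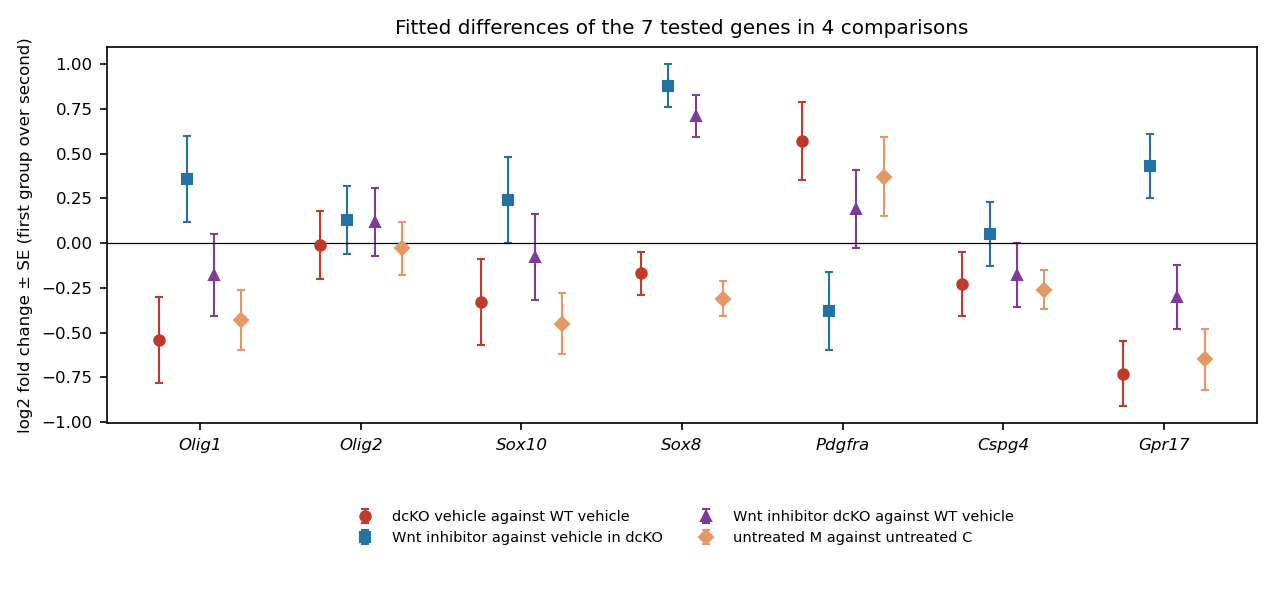
Fitted log2 fold changes with standard errors (edgeR) of the 7 tested genes in 4 comparisons, first group over second, all libraries included. Vehicle (circles) and untreated (diamonds) values lie side by side for every gene, Gpr17 lowest at -0.73 and -0.65 and Pdgfra highest at 0.57 and 0.37, and the inhibitor comparison (squares) is highest for Sox8 at 0.88. The comparisons share libraries, and vehicle and untreated libraries resemble each other pair by pair.

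Sox8, the SoxE factor for which the list was drawn up, had its highest levels with the inhibitor. It lay at 25.98, 19.6, 18.4 and 20.4 CPM in WT vehicle, at 18.4, 21.8, 16.8 and 17.9 CPM in dcKO vehicle and at 32.4, 35.0, 35.4 and 35.0 CPM in dcKO inhibitor. All 4 inhibitor libraries were above all 15 others, libraries 1 and 2 with near-control Smarcc levels as much as libraries 3 and 4. Fitted against dcKO vehicle the difference was 0.88 (SE 0.12) on the log2 scale, or 1.84-fold, and against WT vehicle 0.71 (SE 0.12), or 1.64-fold; the 2 comparisons share the inhibitor libraries, and no test is given because these values chose the gene. Without the libraries of near-control Smarcc levels the differences were 0.99 (SE 0.15) and 0.74 (SE 0.14).

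Sox8 in the untreated libraries lay at 21.4, 19.6, 21.6 and 18.98 CPM in C and at 18.7, 15.7 and 15.1 CPM in M libraries 2, 3 and 4. The M values were all below the C values, by -0.31 (SE 0.10) on the log2 scale, or by -0.41 (SE 0.09) without the library labelled M 2. These libraries resemble the vehicle libraries of the Sox8 comparison pair by pair, so they too are given as a description. With vehicle the dcKO value was -0.17 (SE 0.12).

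Sox8 lies on chromosome 17 between 25565892 and 25570686 (mm10), on the minus strand. The noncoding antisense gene 2810468N07Rik starts inside its first stretch of exon and runs the other way, from 25570358 to 25575043, sharing 329 of the 3118 exon bases of Sox8. It lay at 2.73 to 3.99 CPM in WT vehicle, 1.91 to 2.57 CPM in dcKO vehicle and 3.87 to 5.98 CPM in dcKO inhibitor, a log2 difference of 0.96 (SE 0.19) between inhibitor and dcKO vehicle. Without the strand setting, reads of the shared bases cannot be assigned to either gene. Of 36 other genes tested within 500 kb of the Sox8 start, none passed an unadjusted p of 0.01 in that comparison, with log2 differences from -0.50 to 0.64 and a median of 0.13.

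Other markers were high in the inhibitor libraries as well. The summed level of 6 choroid plexus markers, led by Ttr and Clic6, was 845.9, 162.7, 484.2 and 11.1 CPM in inhibitor libraries 1 to 4, against 6.29 to 127.9 CPM in WT vehicle and 6.68 to 10.9 CPM in dcKO vehicle, and Otx2 of this list passed against WT vehicle (log2 fold change 1.64, SE 0.26, adjusted p = 0.0464, edgeR). Sox8 lay at 32.4, 35.0, 35.4 and 35.0 CPM in the same inhibitor libraries 1 to 4. Striatal neuron markers were a list of 12 chosen after the values were seen. Their values are therefore a description, and the share of all genes beside them gives no test. Of the 12, 10 were higher in every inhibitor library than in every dcKO vehicle library (4.48% of all genes), among them Ikzf1 by 2.24 (SE 0.42), Isl1 by 2.14 (SE 0.62) and Rarb by 1.90 (SE 0.39) on the log2 scale. Against WT vehicle Ikzf1 differed by 2.6 (SE 0.44) on the log2 scale. Ppp1r1b, the most abundant of the 12, went the other way, at 129.5, 43.1, 133 and 134 CPM in dcKO vehicle and 34.3 to 98.4 CPM with the inhibitor. All 12 together summed to 215.6 to 325.3 CPM with the inhibitor and 74.5 to 238 CPM in dcKO vehicle, so these groups overlapped. In WT vehicle this sum was 105.7 to 148.2 CPM. The other 11, a sum formed after the values were seen and given with no test, came to 163, 282, 227 and 228 CPM in inhibitor libraries 1 to 4. They came to 31.4 to 105 CPM in dcKO vehicle, 70.2 to 98.5 CPM in WT vehicle and 34.0 to 114 CPM untreated. The inhibitor libraries were above all others in the sum without Ppp1r1b but not in the sum of all 12. The 10 ventral progenitor and interneuron markers summed to 718.4 to 936.3 CPM with the inhibitor and 479.9 to 830.1 CPM in dcKO vehicle. These sums overlapped. Of the 10 markers, 9 were higher with the inhibitor than in dcKO vehicle and 1, Lhx6, was lower (-0.08, SE 0.11, log2 scale). Without overlap, 3 of 10 were higher (4.48% of all genes), Dlx6, Nkx2-1 and Lhx8. Nkx2-1 and Lhx8 are factors of the ventral forebrain. Nkx2-1 lay at 4.42 to 22.9 against 1.69 to 3.79 CPM and Lhx8 at 1.65 to 12.5 against 0 to 0.828 CPM. No marker of these lists was at 0 in all inhibitor libraries, and the part of these cells in the Sox8 level was not tested.

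**Figure D4:**
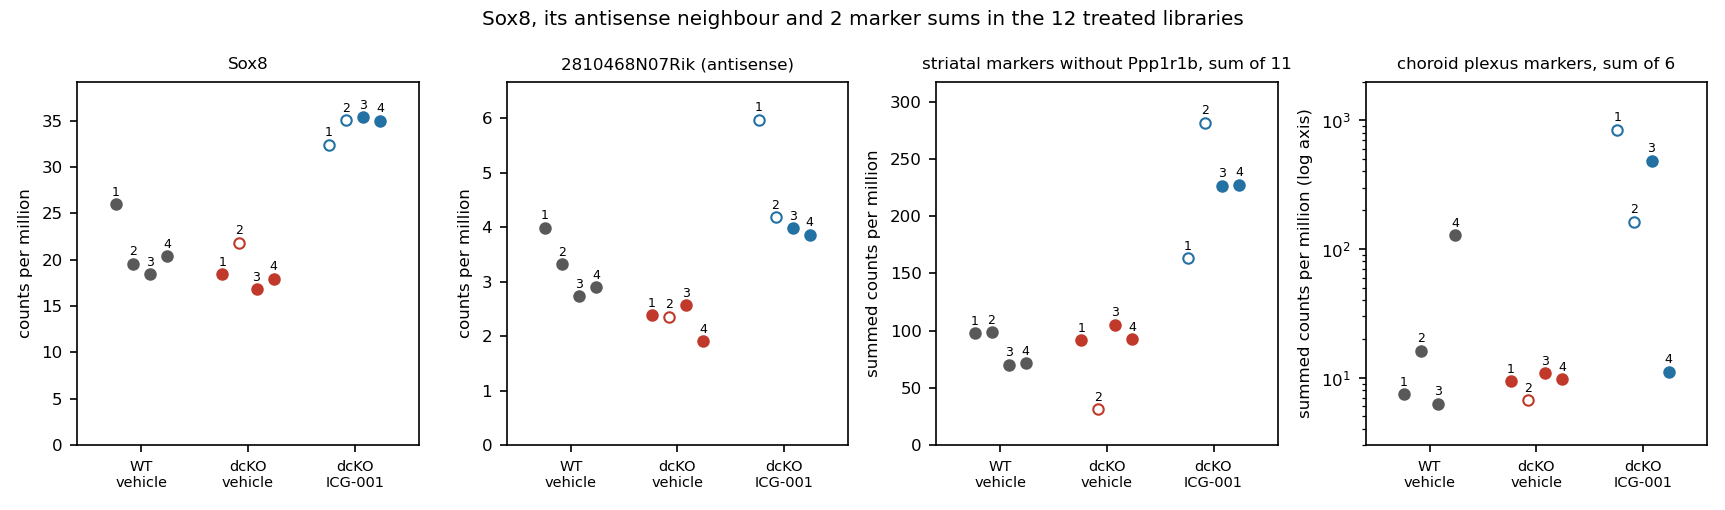
Sox8, the antisense gene 2810468N07Rik, the sum of 11 striatal neuron markers (without Ppp1r1b) and the sum of 6 choroid plexus markers (log axis) in the 12 treated libraries, in CPM; points carry the library number and open points are the libraries with near-control Smarcc levels. Sox8 is at 32.4 to 35.4 CPM in all inhibitor libraries, and the choroid plexus sum of inhibitor 4 (11.1 CPM) lies near those of the dcKO vehicle libraries. The striatal sum of 11, formed after the values were seen, is 163 to 282 CPM in the inhibitor libraries, above all others, and gives no test. With Ppp1r1b included the sums overlap, at 215.6 to 325.3 CPM with the inhibitor and 74.5 to 238 CPM in dcKO vehicle.

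The other genes of the list are given for the inhibitor as values only, since the list was drawn up with this comparison in view. Against dcKO vehicle the log2 differences were 0.43 (SE 0.18) for Gpr17, 0.36 (SE 0.24) for Olig1, 0.24 (SE 0.24) for Sox10, 0.13 (SE 0.19) for Olig2, 0.05 (SE 0.18) for Cspg4 and -0.38 (SE 0.22) for Pdgfra. Gpr17 lay at 12.4 and 17.45 CPM in inhibitor libraries 1 and 2 and at 9.67 and 10.8 CPM in libraries 3 and 4, and without libraries 1 and 2 and the library labelled dcKO vehicle 2 its difference was 0.14 (SE 0.18). Pdgfra was lowest in the same libraries 1 and 2, and with the same libraries left out its difference was -0.32 (SE 0.13). Against WT vehicle none of these other genes passed an adjusted p of 0.05, where 0.0977% of all genes did (edgeR). There Gpr17 differed by -0.30 (SE 0.18, adjusted p = 0.363, edgeR) and Pdgfra by 0.19 (SE 0.22, adjusted p = 0.656, edgeR).

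H3K27me3, the mark that Polycomb complexes place over silent developmental genes, was looked at over the same 8 genes as a readout that did not choose them. The promoters of 3 of them are shown because they span the range from a silent gene to a raised one, with each CG dinucleotide, the feature that Polycomb-marked promoters are rich in, in capitals. The sequences are RefSeq's for GRCm38.p6 (mm10), 250 bases before the annotated start, 5′ to 3′ on the gene's strand.
Nkx2-9, chr12:56613285-56613534, minus strand: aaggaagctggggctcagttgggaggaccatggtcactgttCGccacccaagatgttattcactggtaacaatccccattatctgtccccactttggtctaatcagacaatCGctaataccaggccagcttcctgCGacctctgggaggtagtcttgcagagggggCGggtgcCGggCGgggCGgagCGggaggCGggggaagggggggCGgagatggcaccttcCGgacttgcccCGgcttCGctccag
Sox8, chr17:25570687-25570936, minus strand: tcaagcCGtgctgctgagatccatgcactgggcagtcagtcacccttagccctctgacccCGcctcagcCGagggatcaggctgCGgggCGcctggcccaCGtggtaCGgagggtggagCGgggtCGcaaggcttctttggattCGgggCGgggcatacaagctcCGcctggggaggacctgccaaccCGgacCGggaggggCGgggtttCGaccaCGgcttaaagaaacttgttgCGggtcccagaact
Pdgfra, chr5:75152001-75152250, plus strand: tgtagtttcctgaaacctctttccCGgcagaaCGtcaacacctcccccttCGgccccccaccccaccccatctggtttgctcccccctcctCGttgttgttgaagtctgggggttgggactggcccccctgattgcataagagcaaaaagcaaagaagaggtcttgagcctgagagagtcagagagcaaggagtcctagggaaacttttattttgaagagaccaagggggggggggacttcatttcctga
Sox8 held 18 CG dinucleotides, Nkx2-9 held 13 and Pdgfra held 4, against a median of 6 and quartiles of 2 and 16 over 32851 promoters of the same length. The TCF/LEF letters CTTTGAT or CTTTGAA, searched on both strands, were in none of the 3, and in 7.5% of all promoters. The E-box letters CAGCTG were in none of the 3 either, and in 4271 of the 32851. The SOX letters AACAAT, searched likewise, were in Nkx2-9 1 time, and in 9.4% of all promoters. A match or its absence is a description of these letters in this window only. Promoter sequences used here covered 5 of the 8 genes, Olig2 and Cspg4 besides the 3 shown.

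Peaks lay within 2000 bases of the start of 7 of the 8 genes in at least 5 of 8 libraries. Nkx2-9, Olig2 and Sox10 had a peak in all 8 libraries, Olig1, Pdgfra and Sox8 in 7, Cspg4 in 5 and Gpr17 in none. Among 21755 protein-coding genes 2.5% had a peak at the start in all 8 libraries and 63.2% in none. Nkx2-9, with a peak in every library, had 1 RNA count in all, Olig2 and Sox10 had a peak in every library and were counted as RNA in each RNA library, and Gpr17 had RNA and no peak at its start. Inside the body of Gpr17, K 4 had a peak of 1320 bases with a fold enrichment of 3.6. Merged over libraries, the marked regions spanned 27523 bases at Nkx2-9 (chr12:56600484-56628006), 26668 at Olig2 (chr16:91217170-91243837), 25902 at Olig1 (chr16:91255776-91281677) and 13994 at Pdgfra (chr5:75142974-75156967). Those at Sox10 (chr15:79157225-79166888), Sox8 (chr17:25567364-25572474) and Cspg4 (chr9:56862838-56866843) spanned 9664, 5111 and 4006 bases.

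**Figure D5:**
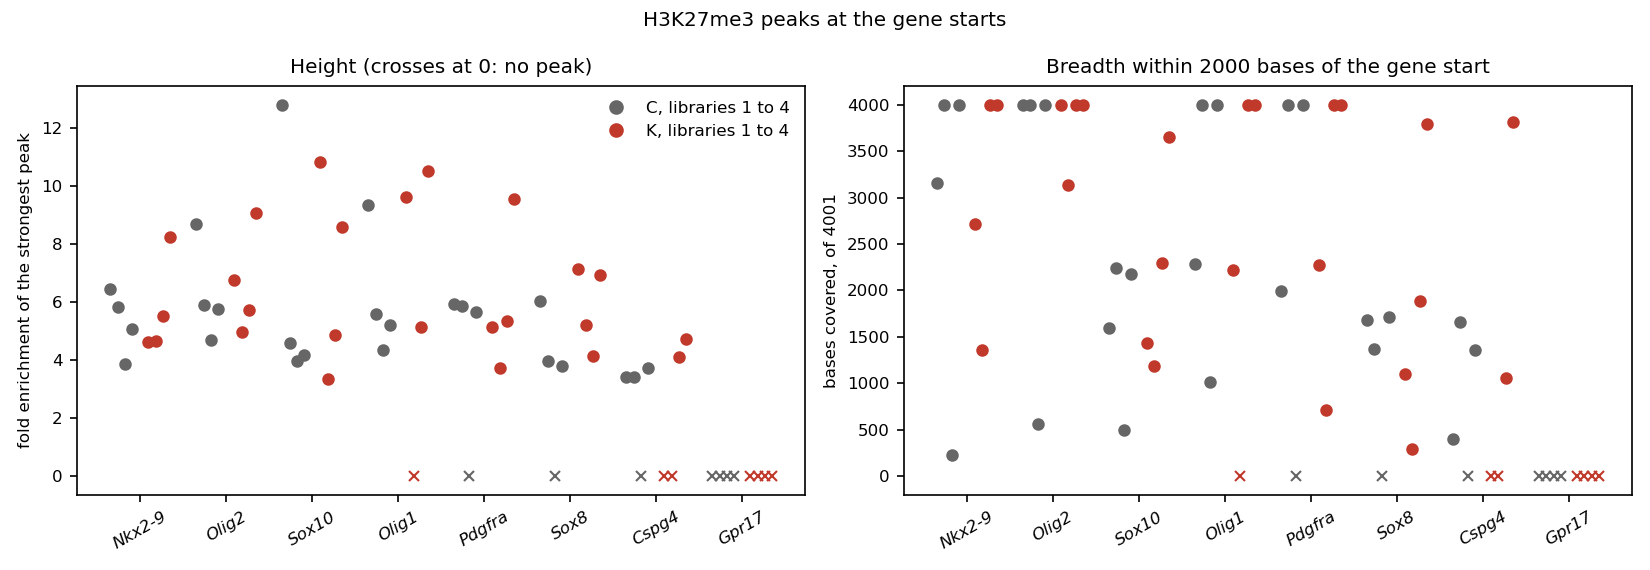
H3K27me3 peaks within 2000 bases of the start of the 8 genes in 4 C and 4 K libraries: fold enrichment over input of the strongest peak (left) and bases covered in that window (right), with crosses at 0 where a library had no peak. C and K points are mixed at every gene, Nkx2-9 and Olig2 are covered most broadly, and Gpr17 has no peak in this window in any library.

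C and K libraries overlapped at every gene. At Sox8 the fold enrichment over input was 6.03, 3.97 and 3.78 in C libraries 1, 2 and 4, with no peak in C 3, and 7.12, 5.19, 4.13 and 6.94 in the K libraries. The log2 difference of K minus C was 0.89 (SE 0.78) in limma, with a library without a peak set to 1, and it rests on the library without a peak: without C 3 it was 0.35. At Olig2 the values were 8.70, 5.91, 5.79 and 5.76 in C and 6.76, 6.06, 5.71 and 9.06 in K, a log2 difference of 0.08 (SE 0.61). At Pdgfra they were 5.94, 5.87, 5.20 and 5.67 in C and 5.13, 4.60, 5.35 and 9.56 in K, a log2 difference of 0.06 (SE 0.66). Of the 8 regions over these genes, none passed at an adjusted or an unadjusted p of 0.05, as did 0% and 0.221% of 22220 regions (limma), and their median difference was 0.08 against 0.05 over all regions. The libraries kept 12.29 to 66.55% of their tags after duplicates were removed and held 6674 to 46000 peaks, so a missing peak does not show that the mark was missing.

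Genes of the lineage beyond the 8 were taken from lists, and single genes with the lowest p are named after their values were seen. Of 16 other genes of oligodendrocyte precursors 15 were tested, 6 higher and 9 lower in dcKO vehicle, none past an adjusted p of 0.05 and with a median log2 fold change of -0.06; Ptprz1 and Vcan, the most abundant, differed by -0.07 (SE 0.16) and -0.06 (SE 0.14). Of 13 genes of premyelinating oligodendrocytes 10 were tested, 4 higher and 6 lower, none past the test, with Fyn at -0.09 (SE 0.07) and Sirt2 at 0.12 (SE 0.09). In this premyelinating list 4 of 10 were lower at an unadjusted p of 0.05 (5.33% of all genes), Bcas1 at -1.16 (SE 0.32), Zfp488 at -0.84 (SE 0.36), Itpr2 at -0.50 (SE 0.18) and Gpr37 at -0.30 (SE 0.13), and 3 of 10 were lower without overlap (2.58% of all genes). Bcas1, a marker of newly formed oligodendrocytes, lay at 1.74 to 2.71 CPM in WT vehicle and 0.653 to 1.25 CPM in dcKO vehicle. Untreated, Bcas1 at -0.93 (SE 0.29) and Itpr2 at -0.47 (SE 0.16) were again lower in every M than in every C library. Without overlap, 2 of 10 were lower (6.21% of all genes) and 2 of 10 higher (6.96% of all genes) untreated. Tcf7l2 of this list went the other way, higher without overlap with vehicle at 0.45 (SE 0.27) and untreated at 0.42 (SE 0.14). With vehicle it was the 1 gene of 10 higher without overlap (3.08% of all genes). Of 10 myelin genes 7 were tested, 2 higher and 5 lower, none past the test, with Mbp at 0.11 (SE 0.14). The untreated libraries gave medians of -0.08, -0.05 and -0.10 for the 3 lists, and no gene of them passed there either (edgeR).

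The genes that signal to precursors were tested as lists too, and none of their genes passed between dcKO vehicle and WT vehicle, nor in the untreated libraries (edgeR). Among 5 PDGF ligands and receptors, Pdgfa, the main ligand of Pdgfra, differed by 0.24 (SE 0.16) with vehicle and 0.09 (SE 0.14) untreated. Among 6 inhibitors of oligodendrocyte differentiation, 3 were higher and 3 lower with vehicle, Id2 by -0.50 (SE 0.26) and Sox5 by -0.47 (SE 0.23). Hes5 of this list, a target of Notch signalling, lay higher in every dcKO vehicle library than in every WT vehicle library, with a difference of 0.64 (SE 0.20, adjusted p = 0.325, edgeR), and of 0.51 (SE 0.17) untreated. Among 9 Wnt feedback genes, which Wnt signalling induces to limit itself, Axin2 differed by 0.51 (SE 0.16, adjusted p = 0.337, edgeR) with vehicle and 0.41 (SE 0.13, adjusted p = 0.188, edgeR) untreated, and Apcdd1 by -0.28 (SE 0.10) and -0.24 (SE 0.07). With the inhibitor against dcKO vehicle Axin2 differed by -0.35 (SE 0.16). Of the remaining marker lists, 8 astroglial genes had a median log2 fold change of -0.27 with vehicle, with Fabp7 at 0.17 (SE 0.11), Tnc at -0.40 (SE 0.19), Aldoc at -1.04 (SE 0.40) and Aqp4 at -1.24 (SE 0.28), 6 floor plate and ventral midline genes, 4 of them tested, a median of 0.28, and 6 Schwann cell and neural crest genes, 4 of them tested, a median of -0.05. Aqp4, the astrocyte water channel gene, lay at 5.01 to 9.76 CPM in WT vehicle and 2.38 to 3.74 CPM in dcKO vehicle, without overlap, as it was untreated (-1.13, SE 0.28). Aqp4 was lower in the same comparisons as Gpr17, and neither passed an adjusted p of 0.05 there (0.221 and 0.143 for Aqp4, edgeR). Of the 8 astroglial genes 6 were lower and 2 higher in each of these comparisons. The 2 were Fabp7, higher without overlap in both (0.26, SE 0.06, untreated), and Slc1a3, at 0.19 (SE 0.11) with vehicle and 0.15 (SE 0.08) untreated. The part of astroglial cells in the Gpr17 level was not tested.

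The genes most like Gpr17, Sox8 and Pdgfra were named by Pearson's r of log2 CPM, as a description over libraries that share their groups. Over the 12 treated libraries Gpr17 was most like Dhx57, Hbegf, Jakmip1, Scd1 and Gabra5 (r from 0.894 to 0.908), Sox8 most like Mroh2a, Syt6, 0610037L13Rik, Adam8 and Szrd1 (0.921 to 0.952) and Pdgfra most like Ildr2, Sall2, Cntnap2, Trhde and Lmo3 (0.951 to 0.956). Over the 7 untreated libraries Gpr17 was most like Micall2, Slco3a1, Nlrp6, Rab3c and Olfm1 (0.979 to 0.981), Sox8 most like Kbtbd11, Slc29a4, Baiap2, Ptpru and Cracr2b (0.971 to 0.995) and Pdgfra most like Hdac11, Pde4a, Chd5, Wfs1 and Oscp1 (0.987 to 0.994). No gene was among the nearest 5 of the same query in both experiments.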

How the data were processed

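RNA-seq of 12 treated and 7 untreated E17.5 cortices and H3K27me3 ChIP-seq of 8 were analysed. Reads had been aligned with STAR (mm10) and assigned to Ensembl genes with featureCounts, and the deposited values are raw read counts, 1 library a file; annotation and strand setting are not given in the sources used here. For ChIP-seq, per the file headers, broad peaks were called in each library with MACS 2.1.0.20140616 at a q-value limit of 0.1 against input, keeping 1 tag per position; the deposited lists give fold enrichment over input (a ratio), pileup (a signal) and −log10 of the p-value and q-value.

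Counts were fitted here with edgeR 4.0.16 (TMM scaling, filterByExpr, robust quasi-likelihood F-test, Benjamini-Hochberg adjustment over all genes tested) in R 4.3.3. The 3 treated groups shared 1 fit and the untreated groups had another; DESeq2 1.42.0 was an alternative. The standard error of a log2 fold change is its size over the square root of F. Symbols and exon lengths came from GENCODE M21 (99.3% and 95.4% of IDs matched). Peaks were merged where they overlapped, regions with a peak in at least 2 of 8 libraries were kept, and the strongest fold enrichment of each library, on a log2 scale, was compared in limma 3.58.1. Both fits were tested on simulated data.

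The 8 genes and the marker lists were chosen with earlier results of these data known, and the striatal list, the summed libraries and the fits without libraries of near-control Smarcc levels were added after seeing the data. Beside the 8 genes, Smarcc1 and Smarcc2, the text names of each list the genes past an adjusted p of 0.05 (up to 4), or otherwise the 2 of highest mean CPM (some are not reported here), and for Gpr17, Sox8 and Pdgfra the 5 genes of highest r; Lims2 and 2810468N07Rik are named because they overlap a listed gene. Further list genes are named after their values were seen. Replicates are separate samples by their labels, which do not say whether they came from separate embryos, so p-values measure the spread between these samples. Replicate numbers did not pair the groups compared.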

Additional observations from a re-analysis of the deposited data

Results flagged for a closer look

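A single library stood apart from the other 3 of its group in 4 of the 39 groups of 4 libraries checked over these genes, by the ratio of its gap to the range of the group; chance flags about 1 group in 20. Sox8 in dcKO inhibitor 1 was at 32.4 CPM against 35.0 to 35.4 CPM in the other inhibitor libraries. H3K27me3 fold enrichment at Sox10 in C 1 was 12.8 against 3.97 to 4.58 in the other C libraries. At Olig2 it was 8.70 in the same C 1 library against 5.76 to 5.91. At Pdgfra it was 9.56 in K 4 against 4.60 to 5.35 in the other K libraries.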

How the results depend on the processing

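With all libraries, none of the 7 tested genes passed between dcKO vehicle and WT vehicle, and DESeq2's test called 1 (Gpr17), leaving out the libraries of near-control Smarcc levels 2 (Pdgfra and Gpr17), and summing same-numbered libraries as well as leaving those out also 2. Over all genes these fits made 1, 120, 978 and 2235 calls, with the block 4 were called higher and 1 lower, and with same-numbered libraries summed 52 and 27. In untreated M against C, DESeq2 called 1 (Gpr17) and the fit without the library labelled M 2 called 2 (Pdgfra and Sox8), with 1, 578 and 1994 calls over all genes. In dcKO inhibitor against WT vehicle none of the tested genes other than Sox8 passed. Calls of Sox8 in the inhibitor comparisons are not given, since its values there chose the list. Over all genes 10 were called higher and 6 lower there, against 26 and 32 with no filter, 324 and 458 by DESeq2, 64 and 125 with the block, 8 and 0 with only the groups compared and 448 and 793 without those libraries. For inhibitor against dcKO vehicle 7 were called higher and 2 lower, against 15 and 5 with no filter, 174 and 165 by DESeq2 and 51 and 121 without those libraries; untreated, no filter gave 88 and 66. Sox8 in the inhibitor libraries chose the list, so the counts for the inhibitor are descriptions and no measure of its stability. Leaving out each library in turn gave 0 to 1 genes called with vehicle (Pdgfra, without the library labelled dcKO vehicle 2) and 0 to 2 for untreated M against C. In such fits the log2 difference of Sox8 with the inhibitor ran from 0.83 to 0.96 against dcKO vehicle. Against WT vehicle it ran from 0.65 to 0.82, both given with no test.

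Some directions reversed. For Olig2 with vehicle the log2 fold change was 0.04 with the replicate block, 0.01 without the libraries of near-control Smarcc levels, 0.01 with same-numbered libraries summed, 0.02 with both, and -0.18 to 0.15 with each library left out. For Olig2 untreated it was 0.07 with the block and -0.15 to 0.05 with each library left out, and against WT vehicle the inhibitor values ranged from -0.06 to 0.28 for Olig2 and from -0.31 to 0.05 for Sox10. For H3K27me3, K minus C reversed with pileup in place of fold enrichment at Nkx2-9 (-0.11), Sox10 (-0.36), Olig2 (-0.09) and the Pdgfra start (-0.13), and with a stricter q-value at Cspg4 (1.07); with each library left out it ranged from -0.10 to 0.17, -0.11 to 0.56, -0.06 to 0.22, -0.17 to 0.18 and -0.74 to 0.07 at those genes, and from -0.42 to 0.51 at a second region in the Pdgfra body. The cause was not tested. No block changed a call other than those given, with Sox8 in the inhibitor comparisons left out of this count. Same-numbered libraries of groups compared correlated at -0.176 to 0.403 in the treated set, -0.311 to -0.033 untreated and -0.323 to 0.579 in H3K27me3. Depth limits Nkx2-9, and shallow ChIP libraries limit the peaks.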
